A study of Mus musculus with 6 samples.

Results

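The stretch of mouse chromosome 7 that carries H19 and Igf2 was followed in the pancreas of mouse offspring on tiling arrays hybridised with immunoprecipitated methylated DNA (MeDIP-chip). It was taken by position alone. Every non-control probe starting at 149750000 to 149855999 of chromosome 7 (mouse build mm9, a window of 106 kb) was used, which gave 231 of the 174638 probes of the array. H19 lies near 149.76 Mb and Igf2 near 149.84 Mb in these coordinates, as given with the window. The scanner files pair probes with coordinates and not with genes, and no annotation of build mm9 was used here. Promoters, exons and the imprinting control region were therefore not placed among the probes, and the label of the locus rests on these positions. The RefSeq gene order (GRCm38.p6) also runs from Mrpl23 through H19, Mir675 and Igf2 to Ins2, the gene of insulin 2.

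All 6 arrays held pancreatic tissue of offspring aged 12 weeks. On 3 arrays the offspring came from dams labelled with glucose intolerance, and on 3 from dams labelled with normal glucose tolerance. The series describes the first kind of dam as hyperglycemic and asks whether DNA methylation differs in the pancreas of their offspring. Strain, sex, litter and the way the dams became glucose intolerant are not given in the sources used here. Nothing in the labels says that the arrays of a group came from separate animals, so p-values reflect only how far these samples vary, and that variation may be technical. On every array the immunoprecipitated DNA carried Cy5 and the untreated input DNA of the same sample carried Cy3. In whole tissue, a change in the mix of cell types and a change of methylation within a cell type cannot be told apart.

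H19 and Igf2 are a pair of imprinted genes that share enhancers. H19 is a long noncoding RNA made from the maternal chromosome and the host of the microRNA miR-675. Igf2 encodes insulin-like growth factor 2, a growth factor of the fetus and placenta made mainly from the paternal chromosome. Between the genes, upstream of H19, lies an imprinting control region that is methylated on the paternal copy. On the unmethylated maternal copy the insulator protein CTCF binds this region and keeps the enhancers from Igf2. MeDIP pulls down fragments with methylated CpG sites, so its signal depends on how many CpG sites a fragment holds as well as on their methylation. It does not separate the parental copies.

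RefSeq promoters (GRCm38.p6) were matched by symbol, with 4 for Igf2 and 0 for H19. The 250 bases before each Igf2 start held 1, 10, 22 and 6 copies of the motif CG, which is its own reverse complement, against a median of 6 over 32851 promoters. The sparsest and the densest are shown because CpG density sets how much methylated DNA the antibody can take from a fragment. Capitals mark each CG. Both are on the minus strand of chromosome 7, at chr7:142666817-142667066 and chr7:142658805-142659054.
Igf2 promoter with the fewest CG: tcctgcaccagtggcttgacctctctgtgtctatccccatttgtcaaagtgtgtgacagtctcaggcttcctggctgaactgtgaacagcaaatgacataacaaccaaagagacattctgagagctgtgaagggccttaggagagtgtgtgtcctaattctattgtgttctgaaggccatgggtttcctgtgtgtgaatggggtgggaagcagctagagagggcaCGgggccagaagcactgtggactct
Igf2 promoter with the most CG: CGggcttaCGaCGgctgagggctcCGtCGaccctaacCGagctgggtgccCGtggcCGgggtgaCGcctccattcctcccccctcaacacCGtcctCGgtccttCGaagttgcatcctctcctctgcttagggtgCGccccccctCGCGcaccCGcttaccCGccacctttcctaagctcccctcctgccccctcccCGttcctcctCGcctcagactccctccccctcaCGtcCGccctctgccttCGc
At least as many CG were found in 92.1% of promoters for the first and in 14.8% for the second. The probes lie on another build and were not placed against these sequences.

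The value of a probe is log2 of the MeDIP signal over the input signal, minus the median of that quantity over the non-control probes of its array, so 0 is the typical probe of the array. Levels of different probes also depend on the probe itself, so the profile is a description. Signal over background stands in for depth, and the number of arrays limits the precision. Input was well above background for 71.0%, 72.5% and 78.7% of all probes on the glucose intolerance arrays and for 92.4%, 87.1% and 85.5% on the normal tolerance arrays. Within the locus, 54, 47 and 37 probes had dim input (not well above background) on glucose intolerance replicates 1, 2 and 3. On normal tolerance replicates 1, 2 and 3 there were 12, 13 and 20. The groups do not overlap in this count. Where MeDIP signal is above background, a dim input leaves only a lower bound on the ratio. Where both channels are dim, as for 32 probes of the locus on at least 1 array, the ratio is bounded in neither direction. Input was well above background on every array for 169 of the 231 probes, and 62 probes (26.8%, against 33.6% of all probes) were dim on at least 1 array. MeDIP signal was dim on at least 1 array for 41 probes of the locus and on all 6 arrays for 8. Scan times in the file headers put the glucose intolerance arrays in scan 1 and the normal tolerance arrays in scans 2 and 3, so scan and group cannot be told apart.

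Along the locus the ratio stayed near the array median over most of its length. It was above it over the first probes and over part of the Igf2 side. The median of the 231 probes was 0.07 log2 units, against -0.18 for the other 15473 probes of chromosome 7 and -0.045 for all probes. The share of probes below -1 was 14.7% in the locus, 25.5% in the rest of the chromosome and 21.2% over all probes. The 62 probes in the 106 kb before the locus had a median of 0.40, and the 8 probes in the 106 kb after it one of 0.19. The locus median was 0.13, 0.06 and 0.05 on glucose intolerance replicates 1 to 3 and -0.05, 0.09 and -0.02 on normal tolerance replicates 1 to 3. The flank before the locus lay higher on every array, from 0.20 to 0.49.

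Probes fell into 5 tiled stretches, runs of at least 3 probes with starts at most 500 bp apart. The H19-side stretch held 30 probes at 149758752 to 149765213. The long stretch held 182 probes at 149765780 to 149806238, more than any other stretch of the array. After a gap of 36759 bp without probes came Igf2-side stretches 1, 2 and 3, with 6, 5 and 8 probes at 149842941 to 149844298, 149844830 to 149845885 and 149846445 to 149848010. Over 10 kb windows, the mean of 6 arrays was 0.49 over the 6 probes from 149758752 to 149759921. It was 0.11, 0.10, -0.04 and -0.08 in the next 4 windows, which end at 149769999, 149779999, 149789999 and 149799999. It was -1.09 in the window starting at 149800000, and was 0.36 over the 19 probes of the Igf2 side. The profile thus ran from a raised H19 end through a level near 0 to a low just ahead of the gap. Beyond it, Igf2-side stretches 1, 2 and 3 averaged 0.93, 0.34 and 0.0012 over 6 arrays. The rise on the Igf2 side thus lay in stretches 1 and 2. Stretch 3 had a probe median of 0.57, with 3 of its 8 probes below -1.

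**Figure D1:**
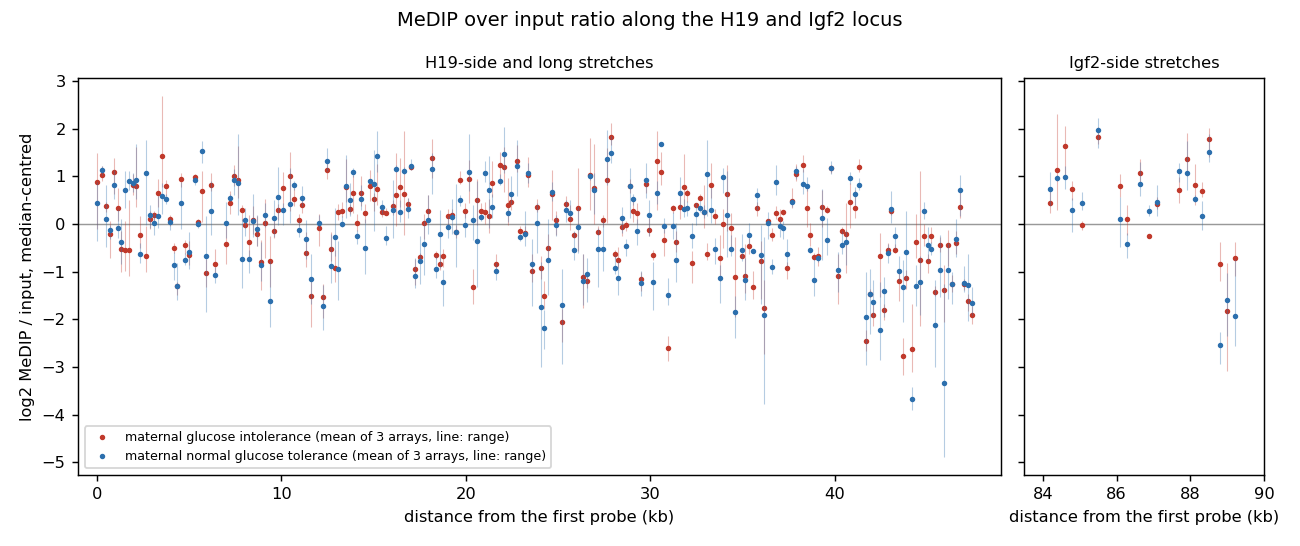
MeDIP over input ratio of each probe (log2, median-centred, y axis) against the distance from the first probe of the locus in kb (x axis); points are the mean of 3 arrays of a group and lines the range, and the right panel holds the Igf2-side stretches after the gap. The points of both groups scatter around 0 over most of the long stretch. The mean of 6 arrays, which is not drawn, fell below -1 at 14 of the last 27 probes before the gap and reached up to 1.90 on the Igf2 side.

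Single probes scattered widely around this profile. Neighbouring probes, with a median of 209 bp between starts, differed by a median of 0.69 log2 units in their mean over 6 arrays. For 70 of 226 neighbouring pairs the step was above 1, and the largest was 3.34. On single arrays neighbours correlated at 0.16 to 0.33 over these pairs, which share fragments and libraries. In the mean over 6 arrays the same pairs correlated at 0.29. The authors' deposited table, whose steps are not given, had 0.65 for its mean over 6 arrays, so that table is smoother along the locus. Its values and the mean ratios correlated at 0.87 over the 231 probes. Between arrays the 231 ratios correlated at 0.83 to 0.85 for pairs of glucose intolerance arrays, at 0.76 to 0.82 for pairs of normal tolerance arrays and at 0.63 to 0.86 for mixed pairs. The last range reaches both below and above the others.

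The lowest part of the locus was a block of 27 probes at 149800452 to 149806238, the end of the long stretch. Its bounds were set after the values were seen, so it is described without a test. The block mean was -1.24, -0.96 and -1.18 on glucose intolerance replicates 1 to 3 and -1.52, -1.02 and -1.12 on normal tolerance replicates 1 to 3. All 6 arrays were low there and the groups overlapped. In the block 24 of 27 probes were below 0 and 14 below -1, against 67 and 16 of the 155 probes in the rest of the long stretch, whose mean was 0.02. Input in the block lay 1.68 log2 units above the array median and MeDIP signal 0.53 above it. In the rest of the long stretch these values were 0.28 and 0.27. On average over the block, the low ratio thus went with a bright input rather than with a MeDIP signal below the array median. This did not hold for every probe of the block. Input was well above background on every array for 26 of its 27 probes and MeDIP signal for 21. In the authors' deposited table the block mean was -0.57 and that of the rest 0.15, so the block was low there too.

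**Figure D2:**
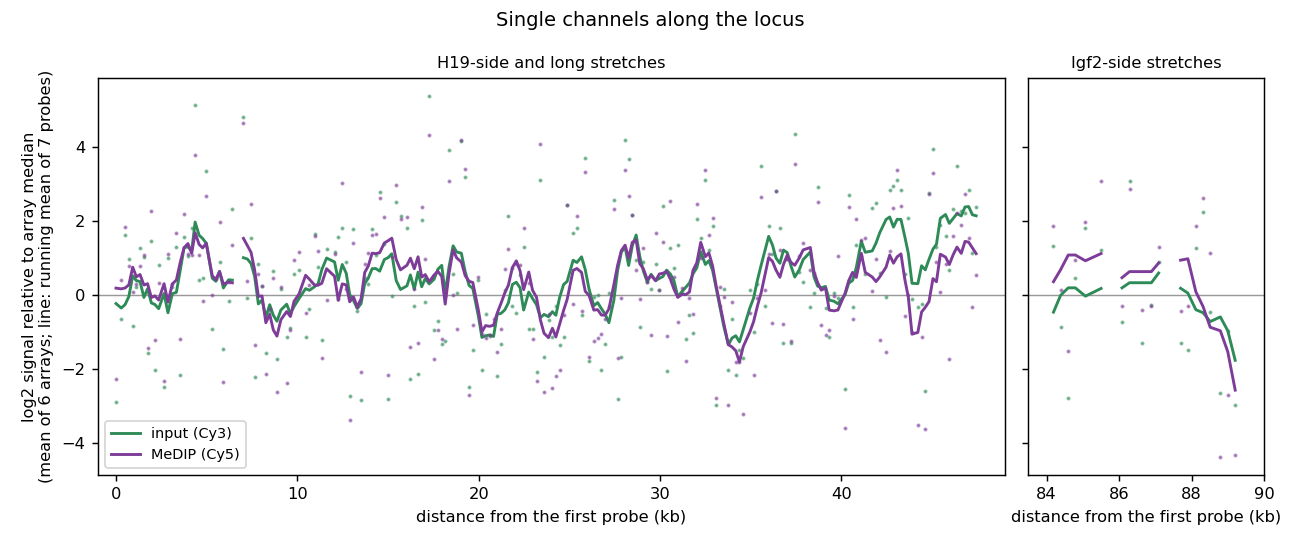
Input (Cy3) and MeDIP (Cy5) signal of each probe relative to the array median (log2, mean of 6 arrays, y axis) against the distance from the first probe in kb (x axis); lines are running means of 7 probes. The channels part in the last 27 probes before the gap, where input averaged 1.68 and MeDIP signal 0.53, and the other way round in Igf2-side stretch 1, where input averaged 0.20 and MeDIP signal 1.08.

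The 3 probes with the lowest mean ratio all lay in this block. The probe at 149802967 to 149803024 had a mean of -3.14 over 6 arrays, with MeDIP signal not well above background on any of them, so its ratio is an upper bound. The probe at 149804702 to 149804761 averaged -2.36, with MeDIP signal above background on all 3 glucose intolerance arrays and on 1 normal tolerance array. The probe at 149800452 to 149800499 averaged -2.204 with both channels above background throughout, and its input lay 2.34 log2 units above the array median. This last probe is thus a measured low on all 6 arrays, which ran from -2.96 to -0.998.

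The 3 probes with the highest mean ratio lay outside it, 2 of them on the Igf2 side. The probe at 149844254 to 149844298, in Igf2-side stretch 1, had ratios of 2.03, 1.68 and 1.77 on glucose intolerance replicates 1 to 3 and of 2.23, 2.08 and 1.59 on normal tolerance replicates 1 to 3. It was the highest of the locus at 1.90 on average, and its groups overlapped. Its MeDIP signal lay 3.07 log2 units and its input 1.22 above the array median, so both channels were bright. The probe at 149847262 to 149847306, in Igf2-side stretch 3, averaged 1.65, with 1.94, 1.41 and 2.02 against 1.89, 1.33 and 1.298. The probe at 149786618 to 149786662, in the long stretch, also averaged 1.65. Its input was dim on all 3 glucose intolerance arrays and stood at -1.68 log2 units relative to the array median, while its MeDIP signal was near that median (-0.07).

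**Figure D3:**
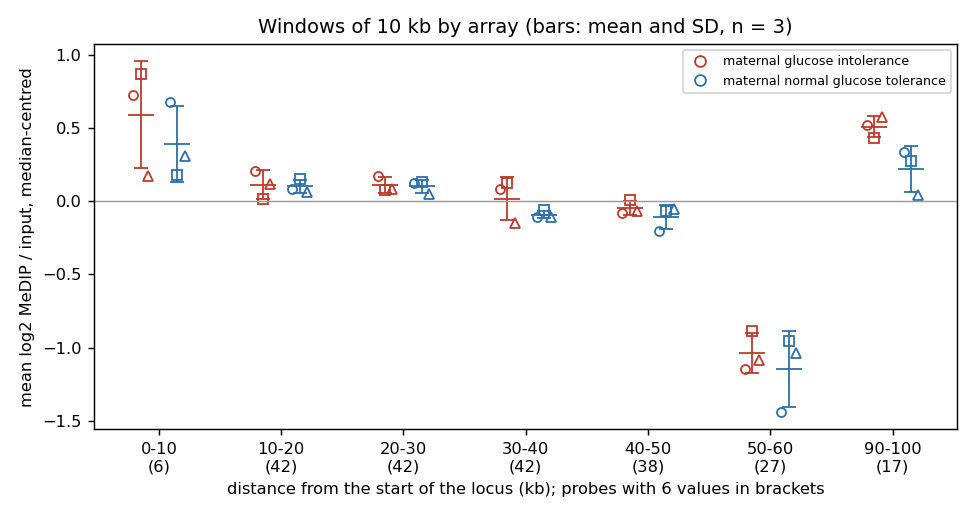
Mean log2 ratio over the probes of each 10 kb window that had a value on all 6 arrays (y axis; number of such probes in brackets) against the distance from the start of the locus in kb (x axis); circles, squares and triangles are replicates 1, 2 and 3, and bars are the mean and SD of 3 arrays. In the last window before the gap the arrays lie between -1.44 and -0.89, and on the Igf2 side they lie between 0.43 and 0.58 with glucose intolerance and between 0.04 and 0.34 with normal tolerance.

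No probe or stretch of the locus differed between the groups at the adjusted threshold. The mean over the 214 probes with a value on every array was -0.007, -0.010 and -0.088 log2 units on glucose intolerance replicates 1 to 3. On normal tolerance replicates 1 to 3 it was -0.152, -0.063 and -0.128. Normal tolerance replicate 2 lay within the range of the glucose intolerance arrays, so the groups overlapped. The group means were -0.035 ± 0.046 and -0.114 ± 0.046 (SD, n = 3 each), a difference of 0.08 (glucose intolerance minus normal tolerance, as throughout). This difference was -0.013 with dim MeDIP spots raised, -0.0042 with loess, -0.0023 with quantile normalization, -0.0009 with centring on bright input, 0.0039 in the authors' deposited table and 0.24 with dim spots of both channels raised. The median difference of the 231 probes was 0.08, against 0.12 for all probes of the array, so the locus stood at -0.046 relative to the general shift between the groups, a value that turned to 0.002 with normexp background correction and to 0.005 in the authors' deposited table. Of the 231 probes, 133 had a positive and 98 a negative difference. A difference beyond 1 log2 unit was found for 7 probes upward and 7 downward, 6.06% of the locus against 9.46% of all probes.

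In limma with Benjamini-Hochberg adjustment over the 174304 probes tested, 0 of 231 locus probes passed 0.05, and 0.00% of all probes did. The lowest adjusted p in the locus was 0.097. The count of 0 was not kept under every setting: 8 locus probes passed after normexp background correction, where 7672 probes of the whole array did, 16 in the authors' deposited table (15313 over the array) and 21 with dim spots of both channels raised (27051 over the array). At an unadjusted p under 0.05 there were 24 locus probes (10.4%), against 16.3% of all probes. Of these 11 were higher (4.76% of the locus, 9.55% of all probes) and 13 lower (5.63% of the locus, 6.80% of all probes). Of the 214 probes with 6 values, 18 had groups that did not overlap with the glucose intolerance arrays higher (8.41%, against 12.8% of all such probes). Another 14 had groups that did not overlap with these arrays lower (6.54%, against 9.30%). Each of these shares lies below the share over the whole array, in both directions. With normexp this turned for the share at an unadjusted p under 0.05, at 28.6% of locus probes against 26.6% of all probes. The count of 24 became 12 without glucose intolerance replicate 2 and 37 without normal tolerance replicate 1. These were 5.22% and 16.1% of the locus probes tested, against 11.1% and 24.5% of all probes. The share of higher probes among those at this p, 45.8%, was 27.3% with arrays centred on probes of bright input, 30.4% when dim MeDIP spots were set to the lowest bright signal of their array, and 63.6% after normexp background correction.

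**Figure D4:**
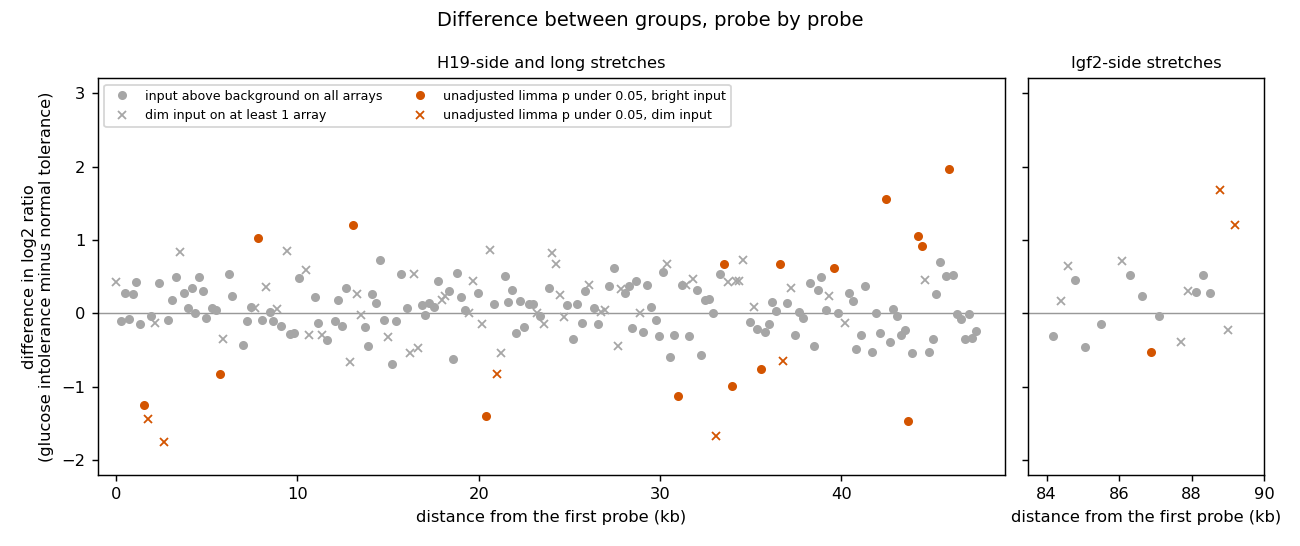
Difference in log2 ratio between the groups for each probe (glucose intolerance minus normal tolerance, y axis) against the distance from the first probe in kb (x axis); crosses are probes with dim input on at least 1 array and colour marks an unadjusted limma p under 0.05. The 24 coloured probes lie above and below 0, and 0 of the 231 pass the adjusted threshold.

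Among the stretches, 0 of 5 passed an adjusted p of 0.05 (0.00% of the 22574 stretches tested) and 1 of 5 had an unadjusted p under 0.05, against 15.7% of all stretches. The groups did not overlap in 1 of 5 stretches with maternal glucose intolerance higher, against 17.5% of all stretches, and in 0 with it lower, against 4.72%. The stretch concerned was the same in both counts, Igf2-side stretch 3. The locus holds too few stretches to read these shares against those of the array.

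The H19-side stretch had means of 0.37, 0.06 and 0.04 log2 units on glucose intolerance replicates 1 to 3 and of 0.30, 0.10 and 0.13 on normal tolerance replicates 1 to 3. Replicate 1 was the highest array of either group, and the groups overlapped. They averaged 0.16 ± 0.18 and 0.18 ± 0.11 (SD, n = 3 each), a difference of -0.018 with a standard error of 0.14 (limma adjusted p 0.956). The sign turned with probes of bright input alone (0.08), with dim spots of both channels raised (0.17), with normexp (0.02) and without normal tolerance replicate 1 (0.04), glucose intolerance replicate 2 (0.03) or glucose intolerance replicate 3 (0.04). Among its 30 probes 17 were higher and 13 lower. At an unadjusted p under 0.05 there were 4 lower and 0 higher probes, named here after their values were seen. Over the whole array 6.80% of probes were lower and 9.55% higher at that p.

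The largest of these was at 149761402, with -0.03, -1.002 and -0.98 against -0.03, 1.76 and 1.51. There replicate 1 of each group lay near 0 and the other arrays parted. Its MeDIP signal was dim on all 3 glucose intolerance arrays and its input on all 3 of them and on 2 normal tolerance arrays, so its size is not well measured. It differed by -1.75 (adjusted p 0.159), and by -0.78 with dim MeDIP spots raised. At 149760492 the difference was -1.44 (-1.23 with dim MeDIP spots raised), again with MeDIP signal dim on all 3 glucose intolerance arrays. Both channels were above background on every array for the other 2 probes. The one at 149760292 had 0.06, -0.99 and -0.68 against 1.11, 0.34 and 0.68, a difference of -1.25, and the one at 149764462 differed by -0.83. All 4 were also lower in the authors' deposited table, by -0.84, -0.98, -0.95 and -0.50 in the order of their positions.

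The long stretch had means of -0.10, -0.06 and -0.17 log2 units on glucose intolerance replicates 1 to 3 and of -0.24, -0.12 and -0.19 on normal tolerance replicates 1 to 3. The groups overlapped, at -0.11 ± 0.05 and -0.18 ± 0.06 (SD, n = 3 each). The difference was 0.07 with a standard error of 0.12 (limma adjusted p 0.780), and its sign turned with loess (-0.03), quantile normalization (-0.01) and centring on probes of bright input (-0.009). Of its 182 probes 104 were higher and 78 lower, and at an unadjusted p under 0.05 there were 9 higher and 8 lower. The low block at its end differed by 0.09, with 5 such probes among 27, and the rest of the stretch by 0.07, with 12 among 155. The share over all probes of the array was 16.3%.

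Igf2-side stretches 1 and 2 were above the array median in both groups. Stretch 1 had means of 1.16, 0.90 and 0.82 on glucose intolerance replicates 1 to 3 and of 1.11, 0.77 and 0.83 on normal tolerance replicates 1 to 3. It was the highest stretch of the locus on every array, and its groups overlapped, with a difference of 0.06 and a standard error of 0.15 (limma adjusted p 0.869). Its sign was not stable: the difference was -0.12 with probes of bright input alone and -0.29 in the authors' deposited table, where its adjusted p was 0.047. Stretch 2 had means of 0.49, 0.32 and 0.48 against 0.50, 0.21 and 0.03, with overlapping groups, a difference of 0.18 and a standard error of 0.15 (adjusted p 0.559). With dim spots of both channels raised to the lowest signal above background its difference was 0.48 (adjusted p 0.026). Under that setting 7173 of the 22574 stretches of the array passed an adjusted p of 0.05. The difference of stretch 2 was 0.05 with probes of bright input alone, 0.04 with loess, 0.07 without normal tolerance replicate 3 and -0.11 with starts at most 300 bp apart. In stretch 2 the probe at 149845640 had the tightest values, -0.26, -0.24 and -0.25 against 0.17, 0.25 and 0.39, a difference of -0.52 that runs against the stretch mean (adjusted p 0.286 in limma, chosen after its values were seen).

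Igf2-side stretch 3, at the high end of the locus, was the stretch with the lowest p. Its mean was 0.19, 0.18 and 0.40 log2 units on glucose intolerance replicates 1 to 3 and -0.22, -0.02 and -0.51 on normal tolerance replicates 1 to 3. All 3 glucose intolerance arrays were above 0 and all 3 normal tolerance arrays below it. The means were 0.25 ± 0.13 and -0.25 ± 0.25 (SD, n = 3 each), a difference of 0.50 with a standard error of 0.15 (unadjusted p 0.010, limma adjusted p 0.231). Beyond the median shift of all stretches the difference was 0.40. Of its 8 probes 6 were higher and 2 lower. The first 5, at 149846445 to 149847306, differed by -0.39, 0.31, 0.30, 0.52 and 0.28. The last 3, at 149847541, 149847746 and 149847951, differed by 1.68, -0.22 and 1.20 and were the 3 lowest of the stretch. Input was dim on at least 1 array for 5 of the 8 probes, and MeDIP signal for the last 3. Between the groups, input differed by -0.51 and MeDIP signal by -0.16, each taken relative to its array median, so the input channel differed more than the MeDIP channel. With probes of bright input alone the difference was 0.36, with normexp background correction 0.06, with unsubtracted signals 0.03 and in the authors' deposited table -0.06.

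**Figure D5:**
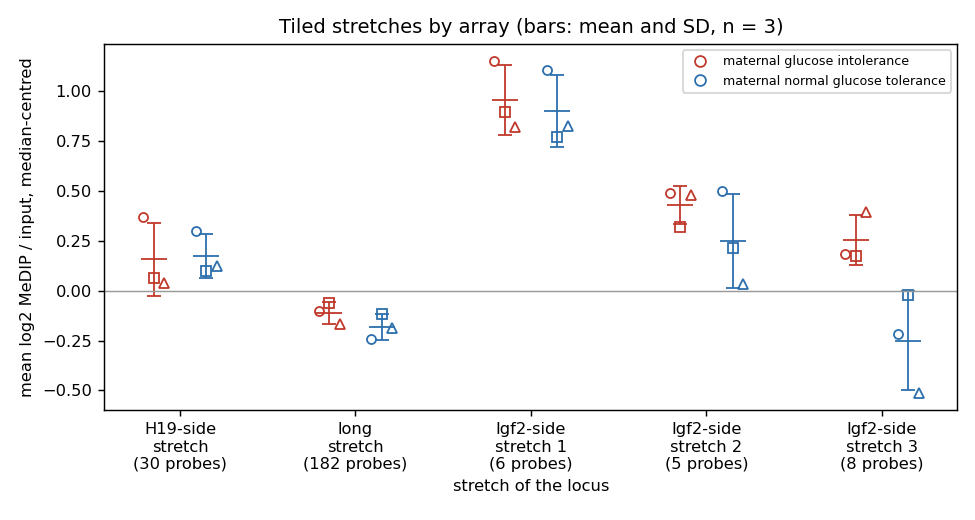
Mean log2 ratio of the 5 tiled stretches on each array (y axis; number of probes in brackets); circles, squares and triangles are replicates 1, 2 and 3, and bars are the mean and SD of 3 arrays. The groups overlap in 4 stretches and do not overlap in Igf2-side stretch 3, at 0.25 ± 0.13 against -0.25 ± 0.25.

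The lowest p among probes that were higher belonged to 149847541 to 149847600 in that stretch. Its ratio was -1.19, -0.97 and -0.39 on glucose intolerance replicates 1 to 3 and -2.93, -2.27 and -2.40 on normal tolerance replicates 1 to 3, a difference of 1.68 with a standard error of 0.31 (limma adjusted p 0.097). The groups did not overlap, but MeDIP signal was dim on all 6 arrays and input on all 3 glucose intolerance arrays. MeDIP signal differed by -0.05 relative to the array median and input by -1.61. The difference was 1.61 with dim MeDIP spots raised and -0.16 with dim spots of both channels raised. The probe at 149771843 to 149771887 had both channels above background on every array. Its ratio was 0.09, 0.27 and 0.42 against -0.36, -0.90 and -1.58, so the groups did not overlap, a difference of 1.20 or 2.30-fold (adjusted p 0.15). The probe at 149801211 to 149801270, in the low block, had -1.53, -0.18 and -0.28 against -2.85, -1.22 and -2.60. There the groups overlapped, with a difference of 1.56 (adjusted p 0.205) and MeDIP signal above background on 1 of 3 normal tolerance arrays.

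Among lower probes, the lowest p belonged to 149779132 to 149779190, with both channels above background on every array. Its ratio was -1.68, -0.93 and -1.36 on glucose intolerance replicates 1 to 3 and -0.33, 0.41 and 0.16 on normal tolerance replicates 1 to 3. The groups did not overlap, and the measured level was 2.64-fold lower, or -1.40 with a standard error of 0.30 (limma adjusted p 0.117). The probe at 149789731 to 149789776 had -2.87, -2.35 and -2.59 against -1.63, -1.69 and -1.12, again without overlap and with both channels bright. It was 2.17-fold lower (adjusted p 0.118). The probe at 149791858 to 149791907 had -0.71, -0.76 and -0.39 against 0.18, 1.20 and 1.77. Its groups did not overlap either (adjusted p 0.118), but input and MeDIP signal were dim on all 3 glucose intolerance arrays. Its difference of -1.67 became 0.14 with dim MeDIP spots raised and -1.12 with dim spots of both channels raised. In the authors' deposited table these 3 probes differed by -0.53, -0.40 and -0.56, and the 3 higher probes above by -0.11, 0.56 and 0.77.

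Probes with dim input held the wider spread. The 169 probes with input above background on every array had a median spread between arrays of a group of 0.29 log2 units (SD), and the 62 others one of 0.58. Their median absolute difference was 0.28 against 0.39. At an unadjusted p under 0.05 there were 17 of the bright probes, 9 of them higher, and 7 of the dim ones, 2 of them higher. The share at that p was 16.3% over all probes of the array. In a separate fit of bright-input probes alone, 20 of the 169 locus probes (11.8%) had such a p, against 15.8% of all probes in that fit. The median ratio was 0.03 for the bright and 0.33 for the dim probes. The 30 probes whose input was dim on every glucose intolerance array had a median difference of 0.20, with 19 higher, 11 lower and values from -1.75 to 1.68. The 6 probes whose input was dim on every normal tolerance array had a median difference of -0.23, with 1 higher and 5 lower. Of these 6, 5 were dim on all 6 arrays and so are also among the 30. Input is the divisor of the ratio, so sets chosen by it are not independent of the difference. The median difference of the 169 bright probes was 0.07. Input was dim on all 6 arrays for 5 probes, of which 149779773 had ratios of -0.002, 0.29 and 0.47 against 0.88, 1.02 and 1.33. Its groups did not overlap, a difference of -0.83 (limma adjusted p 0.175), with MeDIP signal above background throughout. Between the groups its MeDIP signal differed by 0.15 and its dim input by 1.099, each relative to the array median. Whether dim input had a part in this difference or in the others was not tested.

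Other stretches of the array had means close to those of the long stretch. By root mean square difference over 6 arrays, the stretches nearest to the long stretch lay on chromosome 5 at 110536743 to 110538231, on chromosome 3 at 121372381 to 121374002 and on chromosome 11 at 82683755 to 82685873. These differences were 0.034, 0.035 and 0.040 log2 units. Within 0.1 there were 287 of 22569 stretches outside the locus. The 3 nearest held 7, 8 and 11 probes, against 182 in the long stretch. Other stretches thus shared the mean level of the long stretch on these 6 arrays. Profiles within the stretches were not compared.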

How the data were processed

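MeDIP-chip was measured on 6 two-colour arrays, 3 per group, with groups and replicate numbers from the sample titles. Per the file headers, Agilent Feature Extraction 11.0.1.1 wrote the deposited scanner files, with probe coordinates on build mm9. They hold spot intensity for each dye; the processed intensity is background-subtracted and dye-normalized, per the file headers. The log10 ratio in the deposited files was used only as a check of direction (red over green). The authors also deposited a table of log2 values whose scale steps are not given in the sources used here; it served as an alternative.

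Here, log2 of processed Cy5 over Cy3 was median-centred per array over every non-control probe. Outlier spots were set to missing (23 in the locus, on 17 probes) and no filter on dim input was applied. Group differences were tested in R 4.3.3 with lmFit and eBayes of limma 3.58.1, over all probes and over all stretches, with Benjamini-Hochberg adjustment at 0.05. The fit was also run on simulated data with noise drawn independently for each array. That run cannot show how the test behaves where arrays share variation, such as within a scan. Named probes were the 3 with the highest and lowest mean and, for each direction, the 3 of lowest p. The locus, lists and tests were chosen with earlier results of these data known. The normexp (offset 50) and unsubtracted alternatives were planned on mean signals and used median signals, the ones the files hold. Other genes of the insulin-like growth factor pathway were planned and are not given, because no table of build mm9 paired probes with genes.

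Deviations from the group mean of same-numbered arrays correlated at 0.50, 0.43 and 0.14 over 22574 stretches, and at 0.57, 0.54 and 0.04 over 18562 stretches of bright-input probes. The value for replicate 3 was the lowest in both sets, and correlations of differently numbered arrays are not given for comparison. Whether the numbers pair the arrays is therefore not settled by these values, and no label states a pairing. The scan time stood in for the slide.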

Additional observations from a re-analysis of the deposited data

How the results depend on the processing

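Dim spots in the locus lay, for input, mainly on the glucose intolerance arrays. Whether they limit the results there was not tested. Of the counts, 0 probes passing became 8 with normexp, 9 with unsubtracted signals, 16 with the authors' deposited values, 4 with array weights and 21 with dim spots of both channels raised. Over the whole array 7672, 6005, 15313, 2520 and 27051 probes passed, in the same order. The 24 probes at an unadjusted p under 0.05 became 66, 57, 63, 41 and 81 in the same order, and 13 with the slide as a random block. Under these 6 settings, over all probes, 26.6%, 26.9%, 30.0%, 25.2%, 36.6% and 9.22% had such a p. With 1 array left out the count ran from 12 to 37 and the adjusted counts stayed at 0. The share then ran from 5.22% to 16.1% of locus probes and from 10.7% to 24.5% of all probes. With the replicate block the count was 27 of 226 locus probes tested (11.95%, against 20.7% of all probes). No call in the locus changed there, while 921 stretches of the whole array passed in place of 0. Stretches passing became 1 with the authors' deposited values and 1 with dim spots of both channels raised, where Igf2-side stretch 2 reached 0.480. Over the whole array 1838 and 7173 of 22574 stretches passed under these settings.

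The locus mean difference of 0.079 moved to -0.013 with dim MeDIP spots raised, 0.240 with both channels raised, 0.031 with unsubtracted signals, -0.0042 with loess, -0.0023 with quantile normalization, -0.0009 with centring on bright input and 0.0039 with the authors' deposited values. The locus median minus that of all probes, -0.046, turned sign with normexp (0.002) and the deposited values (0.005). The difference of the H19-side stretch turned sign with bright input alone or both channels bright (0.077 each), both channels raised (0.174), normexp (0.024), starts 1000 bp apart (0.058) and arrays left out (-0.125 to 0.045). That of Igf2-side stretch 1 turned with bright input or both channels bright (-0.118 each), MeDIP raised (-0.026), both raised (-0.025), normexp (-0.166), unsubtracted signals (-0.208), quantile (-0.045), bright centring (-0.024), the deposited values (-0.295) and arrays left out (-0.042 to 0.159). The long stretch turned with MeDIP raised (-0.037), loess (-0.030), quantile (-0.010) and bright centring (-0.009), Igf2-side stretch 2 with starts 300 bp apart (-0.108) and Igf2-side stretch 3 with the deposited values (-0.065). The cause was not tested. The setting that raised both channels was added once the data had been seen.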
